A study of Mus musculus with 12 samples.

Results

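Fatty acids and small metabolites act on fat tissue through receptors on the cell surface, and 9 such receptor genes were followed in mouse epididymal white adipose tissue (eWAT), out of 22947 genes with values. They were chosen by name, with earlier results of these data known, from the receptors of such ligands in fat. Other receptors of the same ligands, such as Adora2a and Ptger1, are not among the 9. The set holds *Ffar4*, *Ffar2* and *Gpr84* for fatty acids of different chain length, *Hcar1* for lactate, and *Hcar2* for 3-hydroxybutyrate and nicotinic acid. It also holds *Sucnr1* for succinate, *Adora1* and *Adora2b* for adenosine, and *Ptger3* for prostaglandin E2. The RNA came from whole eWAT of male C57BL/6J mice, aged 21 weeks, after 16 weeks on a normal diet (ND), a high-fat diet (HFD), the HFD plus an ethanol extract of chrysanthemum leaf at 1.5% by weight (CLE), or the HFD plus the flavonoid luteolin at 0.003% by weight (LU). From each larger group 3 individually housed mice, selected by the authors as representative of it, were sequenced, and each mouse gave 1 library. The comparisons ask how the HFD changed these genes, and whether a CLE or LU supplement moved them.

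All of these receptors are coupled to G proteins. Several of them (*Hcar1*, *Hcar2*, *Adora1*, *Ptger3*) act through inhibitory G proteins, which lower cyclic AMP and so restrain lipolysis, the release of fatty acids from stored fat. In white fat this feeds products of metabolism back on the adipocyte, while *Adora2b* couples to stimulatory G proteins and *Gpr84* is best known from macrophages and other myeloid cells.

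Promoter sequences are shown for the 6 genes that passed the test between HFD and ND and have an entry in the RefSeq table (mouse build GRCm38.p6), so that the stretches before genes that fell and genes that rose can be set side by side. Each runs 5′ to 3′ on the strand of its gene, from 250 bases before the start site to 50 bases after it. Of the 9 genes, 8 had an entry, with 12 windows among them. For *Ffar2* and *Adora1*, which have several windows, the one nearest to the start of the most abundant transcript in these libraries is shown. *Hcar2* had no entry. The windows lie at chr19:38096829-38097128 on the + strand (*Ffar4*), chr7:30821599-30821898 on the - strand (*Ffar2*), chr5:123879954-123880253 on the - strand (*Hcar1*), chr3:157566626-157566925 on the + strand (*Ptger3*), chr1:134235408-134235707 on the - strand (*Adora1*) and chr11:62248734-62249033 on the + strand (*Adora2b*). Capitals mark a match, on either strand, to any of 6 motifs that were searched for.
Ffar4: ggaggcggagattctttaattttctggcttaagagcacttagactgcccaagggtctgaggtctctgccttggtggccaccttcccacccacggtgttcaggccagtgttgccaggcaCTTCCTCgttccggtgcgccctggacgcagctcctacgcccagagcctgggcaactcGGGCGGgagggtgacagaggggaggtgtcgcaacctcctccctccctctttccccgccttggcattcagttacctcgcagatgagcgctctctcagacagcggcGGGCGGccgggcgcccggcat
Ffar2: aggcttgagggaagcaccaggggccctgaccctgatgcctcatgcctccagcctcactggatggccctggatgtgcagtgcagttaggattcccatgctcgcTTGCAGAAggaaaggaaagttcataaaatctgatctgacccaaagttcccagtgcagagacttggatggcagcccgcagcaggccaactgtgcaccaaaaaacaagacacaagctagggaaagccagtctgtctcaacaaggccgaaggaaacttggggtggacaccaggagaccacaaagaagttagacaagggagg
Hcar1: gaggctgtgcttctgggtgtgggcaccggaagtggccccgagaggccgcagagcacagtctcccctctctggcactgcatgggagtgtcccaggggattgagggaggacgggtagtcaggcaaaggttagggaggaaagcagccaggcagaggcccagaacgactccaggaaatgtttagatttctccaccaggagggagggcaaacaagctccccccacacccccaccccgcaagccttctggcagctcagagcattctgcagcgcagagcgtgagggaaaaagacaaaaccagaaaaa
Ptger3: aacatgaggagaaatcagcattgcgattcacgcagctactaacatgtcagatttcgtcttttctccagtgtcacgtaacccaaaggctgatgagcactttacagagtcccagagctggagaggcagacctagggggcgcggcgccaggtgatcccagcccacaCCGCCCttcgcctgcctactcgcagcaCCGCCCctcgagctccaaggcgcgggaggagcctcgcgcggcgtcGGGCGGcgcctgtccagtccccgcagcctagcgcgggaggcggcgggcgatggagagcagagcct
Adora1: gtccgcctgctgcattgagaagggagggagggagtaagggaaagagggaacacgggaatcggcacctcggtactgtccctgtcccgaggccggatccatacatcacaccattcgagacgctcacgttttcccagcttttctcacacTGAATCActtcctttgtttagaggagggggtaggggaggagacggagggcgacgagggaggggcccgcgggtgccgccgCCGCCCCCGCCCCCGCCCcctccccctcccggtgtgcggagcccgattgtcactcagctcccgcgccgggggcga
Adora2b: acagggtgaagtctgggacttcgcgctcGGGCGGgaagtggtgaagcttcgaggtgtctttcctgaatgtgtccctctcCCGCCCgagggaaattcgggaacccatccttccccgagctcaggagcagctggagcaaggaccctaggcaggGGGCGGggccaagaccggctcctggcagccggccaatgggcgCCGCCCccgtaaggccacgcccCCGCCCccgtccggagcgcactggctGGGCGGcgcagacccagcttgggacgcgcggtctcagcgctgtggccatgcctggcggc

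The motifs were PU.1 (GAGGAAG), C/EBP (TTGCNNAA), the nuclear receptor half-site (AGGTCA), the GC box (GGGCGG), the TATA box (TATAAA) and AP-1 (TGANTCA). No match overlapped a match to another motif, and the 3 GC boxes of *Adora1* abut each other. *Adora2b* held 6 GC boxes, *Adora1* and *Ptger3* held 3 each and *Ffar4* held 2, while 35.6% of all 32817 promoter windows of this length held at least 1. The *Ffar4* window also held 1 match to the PU.1 letters (13.6% of all windows), the *Adora1* window 1 match to the AP-1 letters (7.81%) and the *Ffar2* window 1 match to the C/EBP letters (10.8%). None of the 6 windows shown held the TATA box (13.6%) or the nuclear receptor half-site (16.3%), and the *Hcar1* window held none of the motifs. In the windows shown, GC boxes thus stood before both genes that were higher in HFD and before 2 of the 4 that were lower. That split depends on the windows shown. The *Ffar2* windows at chr7:30821143-30821442 and chr7:30821090-30821389, not shown, also held a GC box. The *Adora1* window at chr1:134234807-134235106, not shown, held none of the motifs. A match is only a stretch of letters.

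The authors deposited FPKM values, a unit of sequenced fragments scaled to transcript length and library size, and these were summed over the transcripts of each gene. With limma, 12775 genes that reached 1 FPKM in 3 libraries or more were tested together on log2(FPKM + 1), and to be called a gene needed a fold change over 1.5 together with an adjusted p under 0.05. This scale compresses differences of weakly expressed genes. Sequencing depth is unknown, because no counts were given. The summed FPKM of all genes ranged from 435095 to 455040 per library, and the correlation of 2 libraries of a group over all genes (Pearson's r) ranged from 0.991 to 0.996. The tissue label was borne out by the adipocyte markers, of which 7 of 7 were present, with a summed level of 30750 to 32510 FPKM in ND, 15630 to 17660 in HFD, 24090 to 26370 in CLE and 22800 to 27860 in LU. The 7 macrophage markers summed to 320 to 489 FPKM in ND, 2204 to 2530 in HFD, 559 to 818 in CLE and 887 to 1005 in LU. Other marker lists moved too. Of all genes tested, 14.9% were called higher and 10.8% lower in HFD than in ND. Against HFD, 6.33% were called higher with CLE and 4.81% with LU. Of 6 neutrophil markers, 3 were tested, of which 2 were called higher in HFD and 1 lower, and the sum was 6.90 to 15.7 FPKM in ND and 73.9 to 123 in HFD, while the defining markers Ly6g, Retnlg and Mpo stayed under 1 FPKM in every library. All 5 mesothelial markers were called lower in HFD, with a sum of 6.19 to 54.6 FPKM in ND and 0.372 to 4.33 in HFD. Of 5 mast cell markers, 4 were called higher and 1 lower in HFD (9.51 to 15.2 FPKM in ND, 13.4 to 21.5 in HFD), and of 5 endothelial markers, 1 was called lower in HFD, while 3 were called higher with CLE and 4 with LU than with HFD. Of the 5 epididymis markers, Adam28, Defb20, Lcn5 and Spint4 stayed under 1 FPKM in every library. The fifth, Crisp1, averaged 2.23 FPKM in ND, 0.176 in HFD, 0.196 in CLE and 1.15 in LU, and the sum of the list was highest in ND mouse 4 (5.13 FPKM) and LU mouse 3 (2.17 FPKM). In whole tissue, fewer cells of a type and less RNA per cell cannot be told apart, and the part of these shifts in the results for the receptors was not tested. Titles of 4 libraries (LU mouse 2, CLE mouse 4 and the ND mice 3 and 4) carry a letter R that the sources used here do not explain. No HFD library carries it, so that without those libraries the ND group is a single mouse, and a fit to the remaining 8 libraries takes its spread from the other groups.

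Averaged over the 12 libraries, *Sucnr1* had the highest level of the 9 genes, 62.6 FPKM, which exceeded 90.3% of all genes tested. *Ffar2* (39.9 FPKM), *Ptger3* (32.3 FPKM), *Hcar1* (30.5 FPKM) and *Adora1* (28.6 FPKM) followed closely together. *Hcar2* (15.03 FPKM) and *Ffar4* (13.5 FPKM) lay in the middle of the tested genes. *Adora2b* averaged 0.938 FPKM and *Gpr84* 0.0387 FPKM, far below the other 7 receptors.

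**Figure D1:**
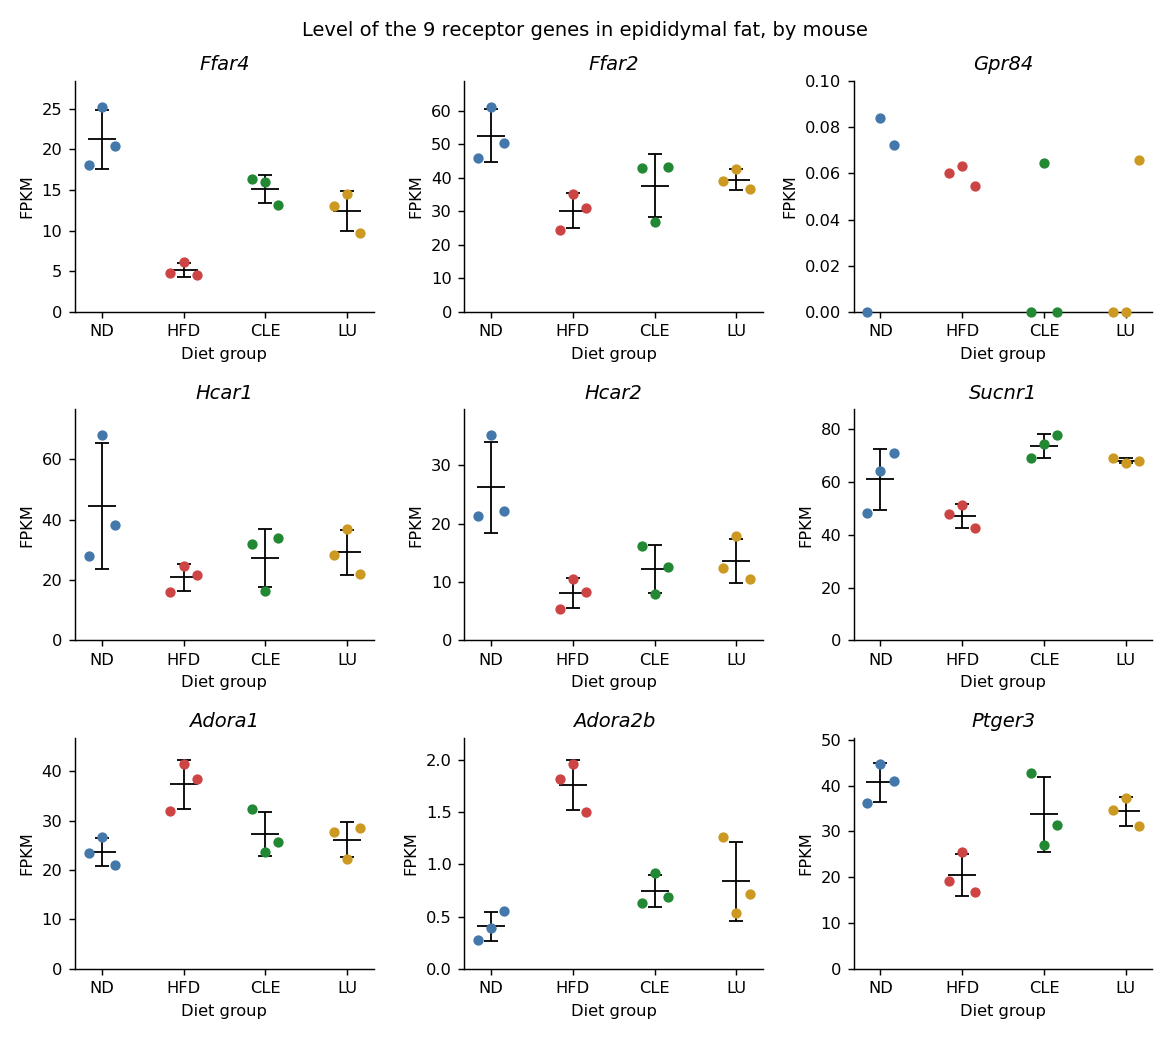
Level of each receptor gene in FPKM (vertical axis, a scale per panel starting at 0) in the 4 diet groups (horizontal axis), where each point is 1 mouse and the bars give the mean ± SD of 3 mice (points only for *Gpr84*). *Ffar4*, *Hcar2*, *Ptger3*, *Ffar2* and *Hcar1* were lower in every HFD mouse than in every ND mouse, *Adora1* and *Adora2b* were higher in every HFD mouse, and *Gpr84* stayed under 0.1 FPKM throughout.

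The HFD lowered 5 of the receptor genes and raised 2. *Ffar4* (long-chain fatty acids), *Hcar2*, *Hcar1*, *Ptger3* and *Ffar2* (short-chain fatty acids) were called lower in HFD than in ND, against 10.8% of all genes tested that were called lower. *Adora2b* and *Adora1* were called higher, against 14.9% of all genes tested. *Sucnr1* did not pass the fold threshold, and *Gpr84* was too low to be tested. *Adora2b* entered the test only through the 3 HFD mice and LU mouse 2, the only libraries in which it reached 1 FPKM, so a difference was built into its selection.

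Among the fatty acid receptors, *Ffar4*, the receptor of long-chain fatty acids that is found on mature adipocytes, measured 18.1, 25.2 and 20.3 FPKM in the ND mice. It measured 4.72, 6.15 and 4.53 FPKM in the HFD mice. The groups did not overlap, and the log2 difference was -1.85 ± 0.16 (SE, n = 3 and 3, limma, adjusted p = 5e-06). On the FPKM scale the HFD mean was 0.242 of the ND mean. The table holds a single transcript for it, of 3 exons, at chr19:38097079-38114263 (+).

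*Ffar4* reached 16.3, 16.0 and 13.1 FPKM in the CLE mice and 13.0, 14.5 and 9.68 FPKM in the LU mice. All 6 supplemented mice were above all HFD mice and below all ND mice. The log2 difference from HFD was 1.40 ± 0.16 for CLE (adjusted p = 9.36e-05) and 1.12 ± 0.16 for LU (adjusted p = 0.000708), and both passed the test. Set against the ND mice, *Ffar4* was called lower in LU (-0.73 ± 0.16, adjusted p = 0.0142) but not in CLE (-0.45 ± 0.16, adjusted p = 0.125). The LU call rested on LU mouse 8, without which the difference was -0.58 and the adjusted p 0.0591. Without the libraries with the letter R, which leaves 1 ND mouse whose spread has to be assumed, the difference was -0.57 (adjusted p = 0.216).

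*Ffar2* binds acetate, propionate and other short-chain fatty acids and couples to inhibitory G proteins in adipocytes. Its levels were 45.9, 61.1 and 50.4 FPKM in ND and 24.5, 35.0 and 30.9 FPKM in HFD, with no overlap. The log2 difference was -0.78 ± 0.19 (adjusted p = 0.0046). The CLE mice had 42.9, 26.8 and 43.3 FPKM, so CLE mouse 4 lay within the HFD range and the other mice of the group above it. The LU mice had 38.9, 42.7 and 36.6 FPKM, all between the HFD and the ND mice. Neither supplement passed the test against HFD (0.29, 95% interval -0.12 to 0.70, adjusted p = 0.251 for CLE, and 0.39, -0.02 to 0.80, adjusted p = 0.147 for LU).

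*Ffar2* was spread over 9 transcripts in the table, 6 annotated and 3 assembled by the authors. The most abundant, Ffar2-203, held 27.8% of the total and went from a mean of 14.7 FPKM in ND to 7.56 FPKM in HFD. An assembled form of Ffar2-201 went from 13.4 to 6.51 FPKM and Ffar2-206 from 12.7 to 7.73 FPKM, so the main forms moved the same way. *Gpr84*, the receptor of medium-chain fatty acids, was listed at 0 in 1 ND, 2 CLE and 2 LU mice, and its highest value was 0.0841 FPKM in ND mouse 3. The HFD mice had 0.0600, 0.0634 and 0.0544 FPKM, although the macrophage markers were several times higher there. Tested with limma without the filter on low values, no comparison of *Gpr84* could pass. On the scale of that test its highest value was 0.116, in ND mouse 3, so no difference could reach the fold threshold. The adjusted p-values (lowest 0.484, CLE against HFD) therefore do not decide whether a diet changed *Gpr84*.

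The hydroxycarboxylic acid receptors *Hcar1* and *Hcar2* are neighbours on chromosome 5, 11237 bases apart and on the same strand, each a gene of 1 exon. *Hcar2* measured 21.3, 35.2 and 22.2 FPKM in the ND mice and 5.43, 10.5 and 8.32 FPKM in the HFD mice. The groups did not overlap, and the log2 difference was -1.59 ± 0.29 (adjusted p = 0.000888). With CLE, *Hcar2* measured 16.3, 7.91 and 12.5 FPKM, and with LU 12.4, 17.9 and 10.5 FPKM. CLE mouse 4 again lay within the HFD range, and LU mouse 8 only just above it. Against HFD the difference was 0.53 (95% interval -0.11 to 1.17, adjusted p = 0.183) for CLE and 0.69 (0.06 to 1.33, adjusted p = 0.099) for LU, and neither passed. Against ND it was -1.06 ± 0.29 for CLE (adjusted p = 0.0573) and -0.89 ± 0.29 for LU (adjusted p = 0.0661), which also missed the threshold, although all 6 supplemented mice were below all ND mice. The CLE difference passed without CLE mouse 2 (-1.27, adjusted p = 0.0392), and the LU difference without LU mouse 3 (-1.10, adjusted p = 0.0468) or CLE mouse 4 (-0.89, adjusted p = 0.0491).

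*Hcar1*, the lactate receptor, measured 27.8, 67.9 and 38.0 FPKM in the ND mice and 16.1, 24.7 and 21.7 FPKM in the HFD mice. ND mouse 3 stood well above the rest. The log2 difference was -0.98 ± 0.34 (adjusted p = 0.03), the weakest call of the 7. It was lost without ND mouse 3 (-0.64, adjusted p = 0.118), without HFD mouse 12 (-0.82, adjusted p = 0.107) and without HFD mouse 18 (-1.02, adjusted p = 0.0579). Without the libraries with the letter R, with ND mouse 2 alone in its group, the difference was -0.42 (adjusted p = 0.312). The CLE mice had 31.8, 16.2 and 33.9 FPKM and the LU mice 28.2, 37.0 and 22.1 FPKM, which overlapped both the HFD and the ND mice. The intervals against HFD, -0.41 to 1.07 for CLE and -0.29 to 1.19 for LU, included differences as large as that between HFD and ND.

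*Hcar2* moved further than its neighbour. The ratio of *Hcar1* to *Hcar2* FPKM was 1.30, 1.93 and 1.72 in the ND mice and 2.97, 2.36 and 2.61 in the HFD mice. The CLE mice had ratios of 1.96, 2.05 and 2.71 and the LU mice 2.28, 2.07 and 2.10, so all 9 mice on a high-fat diet were above the ND mice. The ratio was computed after the values had been seen and is given with no test.

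Among 6 genes of lactate production and transport, Slc16a3, a transporter that exports lactate, was called higher in HFD (1.10) and Slc16a1, another lactate transporter, lower (-0.81), and the remaining 4 were not called. Of all genes tested, 14.9% were called higher and 10.8% lower in HFD. Both supplements lowered Slc16a3 against HFD (CLE -0.88, LU -0.60) and raised Ldhb, a lactate dehydrogenase subunit (0.60 and 0.62), and Slc16a1 rose with LU (0.67). Of 5 tested ketone body genes, only Acat1, the mitochondrial thiolase, was called in HFD (-0.69). Against HFD, 2 of the 5 were called higher and 1 lower with CLE (6.33% and 10.1% of all genes tested). With LU 0 of the 5 were called.

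*Sucnr1*, the succinate receptor, had a different order of groups. The ND mice had 48.4, 64.1 and 70.9 FPKM and the HFD mice 47.9, 51.4 and 42.5 FPKM, and ND mouse 2 fell within the HFD range. The log2 difference of -0.35 ± 0.13 had an adjusted p of 0.037 but was under the fold threshold. The CLE mice had 69.0, 74.4 and 77.8 FPKM and the LU mice 69.0, 67.2 and 68.2 FPKM, all above every HFD mouse and above ND mouse 2. The difference from HFD was 0.63 ± 0.13 for CLE (adjusted p = 0.00284), which was called, and 0.52 ± 0.13 for LU (adjusted p = 0.0111), which was not past the fold of 1.5. Without HFD mouse 18 the CLE difference was 0.56 and fell short of that fold too, and without HFD mouse 15 the LU difference was 0.59 and passed it. Of 7 tested enzymes that make or use succinate, the succinate dehydrogenase subunits Sdhb (-0.81) and Sdha (-0.73) were called lower in HFD. Of all genes tested, 10.8% were called lower there. None of the 7 enzymes was called with CLE or LU by limma.

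*Sucnr1* was almost wholly the annotated transcript of 2 exons, which held 94.9% of its FPKM. The rest belonged to 1 assembled form, at 3.19 FPKM on average.

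*Adora1* and *Adora2b* were higher in HFD, opposite to the other receptors that were called, while Adora2a, another adenosine receptor, was lower. *Adora1*, which couples to inhibitory G proteins and is the main adenosine receptor of the white adipocyte, measured 23.6, 26.6 and 21.0 FPKM in the ND mice. It measured 32.0, 41.6 and 38.5 FPKM in the HFD mice, all above the ND mice. The difference was 0.63 ± 0.15 (adjusted p = 0.00383), just past the fold threshold, which it missed without ND mouse 4 (0.55), without HFD mouse 15 (0.55) and with quantile normalization (0.56). With CLE, *Adora1* measured 32.3, 23.8 and 25.7 FPKM, and with LU 27.7, 22.2 and 28.6 FPKM. CLE mouse 2 just reached the HFD range and the LU mice were all below it. The differences from HFD, -0.44 ± 0.15 for CLE (adjusted p = 0.035) and -0.50 ± 0.15 for LU (adjusted p = 0.0263), were under the fold threshold. For LU it was past that threshold without HFD mouse 12 (-0.60).

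The transcripts of *Adora1* did not all move alike. Adora1-201 went from 6.87, 7.33 and 7.27 FPKM in the ND mice to 13.0, 13.8 and 15.5 FPKM in the HFD mice. Adora1-203 averaged 1.32 FPKM in ND and 4.55 FPKM in HFD, while an assembled form of Adora1-202 averaged 8.78 and 8.14 FPKM. Adora1-201 averaged 10.9 FPKM in CLE and 7.91 FPKM in LU. LU was called lower than HFD with only the most abundant transcript in place of the sum (-0.78, adjusted p = 0.00923) and with the assembled variants of known transcripts left out (-0.74, adjusted p = 0.00924). How fragments were shared out between overlapping transcripts is the estimate of the authors' software and carries its own error. On the opposite strand *Adora1* overlaps Mybph, a muscle gene, which stayed at or under 0.0472 FPKM.

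**Figure D2:**
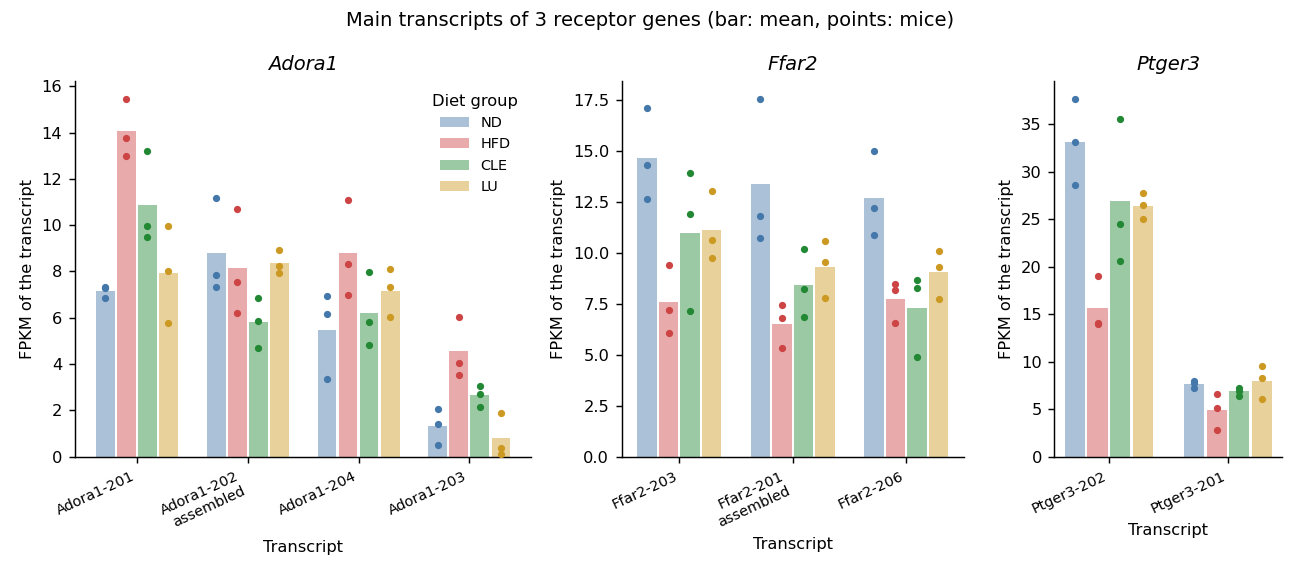
FPKM (vertical axis, from 0) of the main transcripts of *Adora1*, *Ffar2* and *Ptger3* (horizontal axis) in the 4 diet groups, where a bar is the mean of 3 mice and each point 1 mouse; "assembled" marks a form put together from the reads. Adora1-201 was higher in all HFD mice than in all ND mice while the assembled form of Adora1-202 overlapped, and the main forms of *Ffar2* and *Ptger3* were lower in HFD.

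*Adora2b*, the low-affinity adenosine receptor that raises cyclic AMP, measured 0.280, 0.389 and 0.556 FPKM in the ND mice and 1.82, 1.96 and 1.50 FPKM in the HFD mice. The difference was 0.97 ± 0.14 (adjusted p = 0.000162), and on the FPKM scale the HFD mean was 4.31 times the ND mean, an example of how far the log2(FPKM + 1) scale compresses a low gene. The CLE mice had 0.630, 0.917 and 0.691 FPKM and the LU mice 1.26, 0.534 and 0.720 FPKM. All 6 were below the HFD mice, and LU mouse 2 was the nearest to them. Both supplements were called lower than HFD (CLE -0.66 ± 0.14, adjusted p = 0.00387, LU -0.60 ± 0.14, adjusted p = 0.00872). Since *Adora2b* was tested only because the HFD mice and LU mouse 2 reached 1 FPKM, its selection favoured a difference from HFD in these comparisons as well. The LU call fell under the fold threshold without HFD mouse 15 (-0.55), LU mouse 3 (-0.48) or LU mouse 8 (-0.56).

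Of 10 tested genes of adenosine supply and removal, 5 were called higher and 1 lower in HFD, against 14.9% and 10.8% of all genes tested. The largest changes were those of Entpd1, which degrades extracellular ATP (2.83), Slc29a3, a nucleoside transporter (1.69), Enpp1, a nucleotide pyrophosphatase (1.34), and Nt5e, the enzyme that makes adenosine from AMP outside the cell, which fell by 1.22. CLE lowered Slc29a3 (-1.07), Enpp1 (-1.06) and Ada, which breaks down adenosine (-0.68), against HFD, and LU lowered Slc29a3 (-0.98) and Enpp1 (-1.02). Adora2a, the stimulatory adenosine receptor of higher affinity, averaged 19.4 FPKM in ND, 11.2 in HFD, 22.9 in CLE and 19.8 in LU. It was called lower in HFD than in ND (-0.71 ± 0.24, adjusted p = 0.0284) and higher with CLE (0.92) and LU (0.78) than with HFD.

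*Ptger3*, the prostaglandin E2 receptor that inhibits lipolysis in adipocytes, measured 36.3, 44.8 and 41.1 FPKM in the ND mice and 19.1, 25.5 and 16.9 FPKM in the HFD mice. The groups did not overlap, and the difference was -0.97 ± 0.18 (adjusted p = 0.000824). The CLE mice had 42.8, 27.0 and 31.4 FPKM and the LU mice 34.7, 37.3 and 31.1 FPKM, all above the HFD mice, with CLE mouse 2 and LU mouse 3 within the ND range. *Ptger3* was called higher than HFD with CLE (0.69 ± 0.18, adjusted p = 0.0114) and with LU (0.73 ± 0.18, adjusted p = 0.0105). The CLE call was lost without HFD mouse 18 (0.56, adjusted p = 0.0514) and, for the fold, without CLE mouse 2 (0.50, adjusted p = 0.043). Ptger3-202 held 81.3% of its FPKM in ND, 76.3% in HFD, 79.7% in CLE and 76.8% in LU. Of 9 tested genes of prostaglandin E2 supply and removal, Pla2g4a, the phospholipase that frees arachidonic acid, was called higher in HFD (0.93) and lower with CLE (-0.73), and Hpgd, which inactivates prostaglandins, was called lower in HFD (-0.63). Of all genes tested, 14.9% were called higher and 10.8% lower in HFD, and 10.1% lower with CLE than with HFD.

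The comparisons of CLE and LU with HFD use the same 3 HFD mice as the comparison of HFD with ND, so that the opposite signs in the plot of differences are not independent of each other. Against HFD, CLE was called higher for *Ffar4*, *Ptger3* and *Sucnr1*, where 6.33% of all genes tested were called higher, and lower for *Adora2b*, where 10.1% were called lower. LU was called higher for *Ffar4* and *Ptger3* (4.81% of all genes tested) and lower for *Adora2b* (7.64%). Since only the HFD mice and LU mouse 2 reached 1 FPKM of *Adora2b*, its selection favoured these lower calls. Without HFD mouse 18, CLE was called for only 2 of the receptors, *Ffar4* and *Adora2b*. Without the libraries with the letter R, which left 3 HFD, 2 CLE and 2 LU mice, the calls of CLE and LU against HFD were still made (for *Ffar4*, 1.36 in CLE and 1.08 in LU). Against the 1 ND mouse then left, the HFD difference of *Ffar4* was -1.65, a value whose error rests on the spread within the other groups. Against ND, CLE was called for none of the 8 tested receptors by limma, where 2.06% of all genes were called higher and 0.853% lower. An unadjusted p under 0.05 was found for 5 of the 8, against 23.3% of all genes tested. Against ND, LU was called for *Ffar4* alone (lower), where 4.97% of all genes were called higher and 1.62% lower. An unadjusted p under 0.05 was found for 3 of the 8, against 27.7% of all genes tested, a share near that background. In an exact two-sided permutation test of 3 mice against 3, no comparison can go below p = 0.1.

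**Figure D3:**
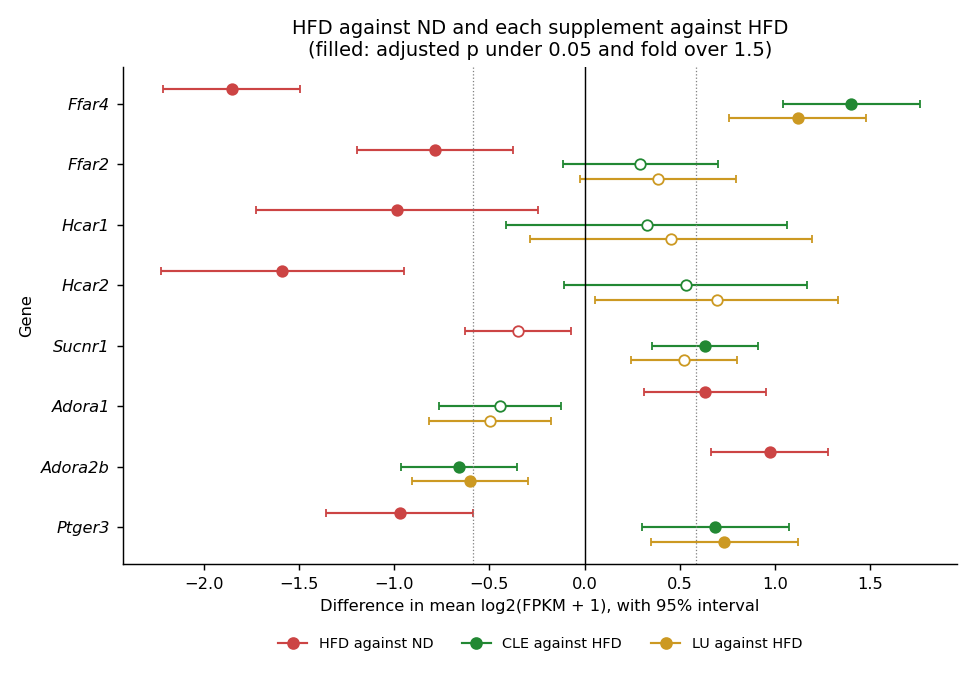
Difference in mean log2(FPKM + 1) (horizontal axis) for the 8 tested receptor genes (vertical axis) between HFD and ND and between each supplement and HFD, with 95% intervals, where filled points passed the test and dotted lines mark a fold of 1.5. *Ffar4* had the widest shift with HFD (-1.85) and the highest values with CLE (1.40) and LU (1.12), and *Adora1* and *Adora2b* lay on the opposite side of 0 from the other genes in all 3 comparisons.

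CLE and LU, at 1.5% and 0.003% of the diet, were not called different from each other for any of the 8 tested receptors by limma. None had an unadjusted p under 0.05 (5.26% of all genes tested), the lowest being 0.115 for *Ffar4*, and only 0.00783% of all genes tested were called. The interval of CLE minus LU was -0.08 to 0.64 for *Ffar4*, -0.17 to 0.39 for *Sucnr1*, -0.36 to 0.25 for *Adora2b*, -0.27 to 0.37 for *Adora1* and -0.43 to 0.34 for *Ptger3*. The intervals were wider for *Ffar2* (-0.50 to 0.32), *Hcar2* (-0.80 to 0.48) and *Hcar1* (-0.87 to 0.61), and for *Ffar4*, *Hcar2* and *Hcar1* they reached past the fold used for calling. Luteolin is a constituent of chrysanthemum, and the dose in the 2 diets was not matched.

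**Figure D4:**
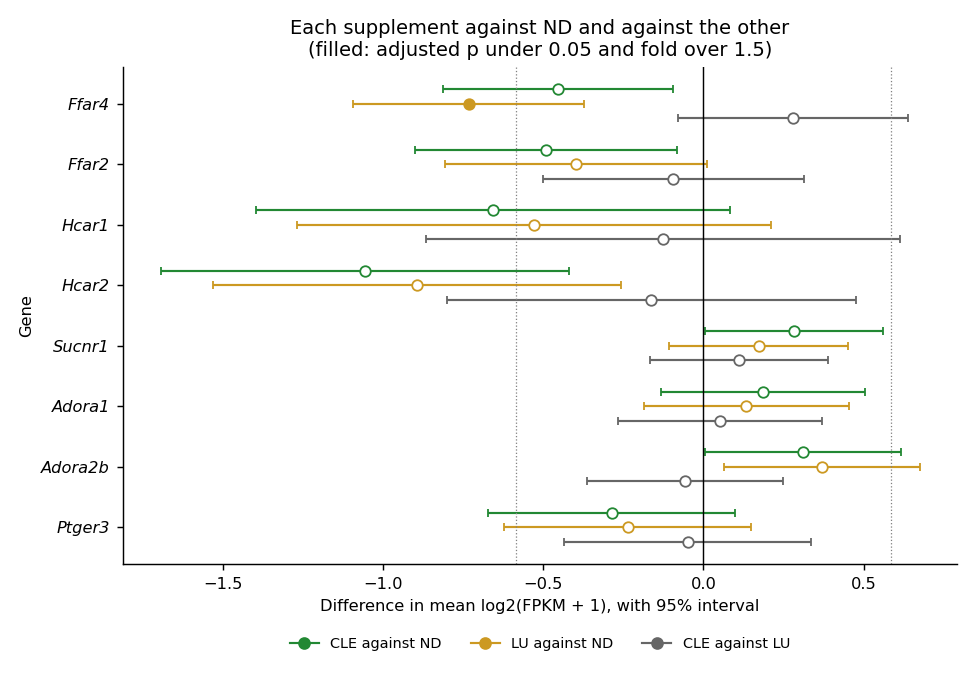
Difference in mean log2(FPKM + 1) (horizontal axis) for the 8 tested receptor genes (vertical axis) between each supplement and ND and between CLE and LU, with 95% intervals, where a filled point passed the test. Only *Ffar4* in LU against ND was called (-0.73), and every interval of CLE against LU included 0.

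Some of the receptor genes also varied together from mouse to mouse. Over the 12 libraries Pearson's r of log2(FPKM + 1) was 0.97 between *Ffar2* and *Hcar2*, 0.95 between *Ffar2* and *Hcar1* and 0.92 between *Hcar1* and *Hcar2*. After each group's mean was taken away, these values were 0.92, 0.92 and 0.91. ND mouse 3 had the highest level of its group and CLE mouse 4 the lowest for all 3 genes, and the part of these mice in the correlations was not tested. *Ffar4* and *Ptger3* correlated at 0.91 over all libraries and 0.66 within groups. *Adora1* and *Adora2b* correlated at 0.76 over all libraries but at 0.01 within groups. *Adora1* was negative with *Ffar2*, *Hcar2*, *Ptger3* and *Hcar1* over all libraries, but positive within groups (0.55, 0.50, 0.48 and 0.38). Against the other receptors, within-group values of *Sucnr1* ran from -0.16 (*Adora1*) to 0.54 (*Adora2b*). Those of *Adora2b* ran from -0.34 (*Hcar2*) to 0.54 (*Sucnr1*). The points share diet group and library, and no test was made.

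Among genes outside the 9, the most like *Ffar2* were Etfb, an electron transfer flavoprotein subunit, and Txn2, the mitochondrial thioredoxin (both r = 0.933), below its value with *Hcar2*. *Hcar1* was most like Lsm12 (0.931) and Etfb (0.930), and *Hcar2* like Bcs1l, an assembly factor of respiratory complex III, and Pyurf (both 0.968). *Ffar4* was most like Retn, the adipokine resistin, and Tmem216 (both 0.990), and *Ptger3* like Etfrf1 (0.959) and Nfs1 (0.955), both of which are mitochondrial. *Sucnr1* was closest to Palmd (0.948) and Iscu (0.933), *Adora1* to Dhx32 (0.932) among the genes named here, and *Adora2b* to Tmem202 (0.964) and Lhfp (0.960).

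The summed adipocyte markers correlated over the 12 libraries at 0.96 with *Ffar4*, 0.90 with *Ptger3*, 0.83 with *Hcar2*, 0.77 with *Ffar2*, 0.63 with *Hcar1* and 0.57 with *Sucnr1*, and at -0.81 with *Adora1* and -0.94 with *Adora2b*. The macrophage markers had the reverse signs, from -0.94 for *Ffar4* to 0.90 for *Adora2b*. The neutrophil markers followed them, from -0.91 for *Ffar4* to 0.81 for *Adora2b*, and the mesothelial markers followed the adipocyte markers, at 0.80 with *Ffar4*, 0.81 with *Ptger3* and -0.78 with *Adora1*. The B cell markers, which summed to only 1.01 to 6.6 FPKM, correlated at 0.84 with *Hcar1*, 0.82 with *Hcar2* and 0.79 with *Ffar2*. For *Hcar1* and *Ffar2* these values were above those of the adipocyte markers. The mast cell markers correlated at -0.77 with *Sucnr1*. Within groups, after subtraction of the group means, the values for the adipocyte markers ranged only from -0.51 (*Adora2b*) to 0.49 (*Ptger3*). The marker sum is dominated by Fabp4, Cfd, Cidec and Adipoq, and Lep rose with HFD while 5 of the 7 adipocyte markers were called lower.

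**Figure D5:**
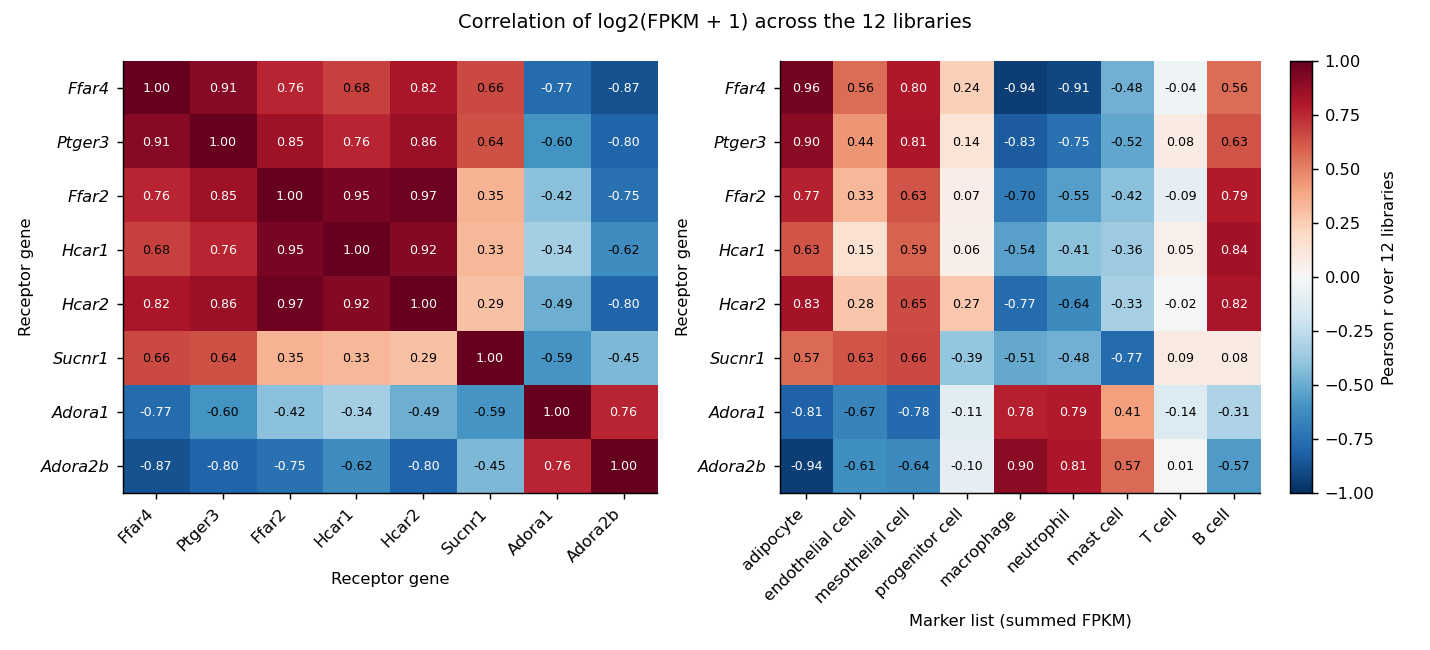
Pearson's r of log2(FPKM + 1) over the 12 libraries (colour and number) between the 8 tested receptor genes (left) and between them and the summed FPKM of 9 marker lists (right). *Ffar2*, *Hcar1* and *Hcar2* formed the tightest trio (0.92 to 0.97), and *Adora1* and *Adora2b* correlated with each other (0.76) and negatively with the other receptors. Within groups (not plotted), *Adora1* and *Adora2b* correlated at 0.01.

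Set against the summed adipocyte markers, the receptors separated further. Per 1000 FPKM of these markers, *Ptger3* had 1.12 to 1.46 FPKM in ND and 1.08 to 1.45 in HFD, *Ffar2* 1.41 to 1.99 and 1.57 to 1.98, and *Hcar1* 0.854 to 2.21 and 1.03 to 1.40, so that the diets overlapped. *Ffar4* had 0.556 to 0.821 in ND and 0.289 to 0.348 in HFD, and *Hcar2* 0.656 to 1.14 and 0.347 to 0.593, and for these genes the diets did not overlap. *Adora1* went from 0.681 to 0.866 in ND up to 2.05 to 2.46 in HFD, *Sucnr1* from 1.49 to 2.30 up to 2.71 to 3.06, and *Adora2b* from 0.00861 to 0.0180 up to 0.0956 to 0.116. With CLE the *Ffar4* ratio was 0.546 to 0.633 and with LU 0.397 to 0.572, above the HFD mice in all cases. The *Ptger3* ratio was 1.07 to 1.62 with CLE and 1.28 to 1.52 with LU, which overlapped the HFD mice. So did the *Sucnr1* ratio, at 2.62 to 3.23 and 2.41 to 3.03, and those of *Ffar2*, *Hcar1* and *Hcar2*. The ratios of *Adora1* and *Adora2b* were below the HFD mice with both supplements. Per 1000 FPKM of the macrophage markers instead, *Adora2b* had 0.796 to 1.69 FPKM in ND and 0.68 to 0.838 in HFD, which overlapped. On that scale *Adora1* was lower in HFD (12.7 to 17.8) than in ND (54.5 to 73.7). These ratios were computed after the values had been seen, depend on the markers chosen and are given with no test.

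Around the receptors, the genes that carry or answer their signal moved as follows. The shares of all genes tested to set beside them were 14.9% called higher and 10.8% lower in HFD. Against HFD these shares were 6.33% and 10.1% with CLE, and 4.81% and 7.64% with LU. Of 11 tested G protein genes, Gna15 (1.30), Gna12 (1.07) and Gna13 (0.80) were called higher in HFD and lower with CLE (-0.94, -0.65 and -0.76) and LU (-0.82, -0.60 and -0.60), and no subunit of the inhibitory class was called in these 3 comparisons. Of 6 tested adenylyl cyclases, which make cyclic AMP, Adcy7 rose most with HFD (2.85) and Adcy4 fell (-1.05), and with CLE (-1.99 and 1.17) and LU (-1.66 and 1.01) both changed in the opposite direction against HFD. Of 13 tested phosphodiesterases, which break down cyclic nucleotides, 3 were called lower in HFD and 2 higher, with a median of 0.09. Pde3b, which mediates the antilipolytic effect of insulin, fell most (-1.30), with Pde1a (-0.92) and Pde4d (-0.64), while Pde7a (0.92) and Pde7b (0.69) rose. Pde3b (0.90 and 0.67) and Pde4b (0.73 and 0.73) were called higher with CLE and LU than with HFD, and Pde1a with CLE (0.83).

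Of 10 tested lipolysis genes, 7 were called lower in HFD and none higher (10.8% and 14.9% of all genes tested). The median was -0.78 against -0.02 over all genes tested. The 7 included the β-adrenergic receptors Adrb3 (-2.73) and Adrb1 (-1.40) and the triglyceride lipase Pnpla2 (-0.92). CLE raised 6 of the 10 against HFD, where 6.33% of all genes tested were called higher. The 6 were led by Adrb3 (1.79), Pnpla2 (0.88), the lipase inhibitor G0s2 (0.83) and the glycerol channel Aqp7 (0.63). LU raised Adrb3 (1.67) and Aqp7 (0.61), where 4.81% of all genes tested were called higher. Of 8 tested receptors of the same ligand families, 6 were called higher and 1 lower in HFD (14.9% and 10.8% of all genes tested). The higher ones included the proton sensor Gpr65 (1.94), Gpr35 (1.67) and the prostaglandin E2 receptor Ptger1 (0.93). Gpr65 and Gpr35 were called lower with CLE (-1.25 and -0.96) and with LU (-0.77 and -0.83). The fatty acid receptors Ffar1 and Ffar3 stayed under 0.2 FPKM in every library. Of 7 tested receptor kinases and arrestins, which switch such receptors off, Arrb2 (1.07) and Grk3 (0.66) were called higher in HFD and lower with CLE (-0.80 and -0.69), and none with LU. None of the 6 subunits of protein kinase A was called in these comparisons by limma.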

How the data were processed

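RNA of eWAT from 3 mice of each of 4 groups was measured as mRNA-Seq with paired-end reads, and groups were taken from the diet in the sample labels. The submitters' processing notes name CASAVA 1.8.2, Bowtie2 2.2.3, TopHat2 2.0.12 and Cufflinks 2.2.1. The genome build is not given in the sources used here. The authors deposited FPKM values for 152210 transcripts. Of the 15 columns of FPKM, 3 that match none of the samples were left out, and the column headed MD4 was assigned to ND mouse 4 by inference from its number and letter and from a header that lists it among the ND columns. Columns with the authors' calls between groups were not used. The authors' count-based test of differential expression was not repeated, since the table holds no counts. In 1822 genes of a single transcript, low FPKM were checked for whole multiples of a step. At best 16.0% to 21.5% of values came out whole within 0.05, against 10% by chance, so reads were not recovered and depth is unknown.

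Transcripts were matched to GENCODE M21 (GRCm38), which held 77000 of 78786 known ones, of which 87.6% had the same ends. Kept were known transcripts, and assembled ones matched to a known transcript (class code = or j), whose identifier was found there. The other 11794 transcripts were left out, and those kept were summed to 22947 genes. Log2(FPKM + 1) of the 12775 genes that reached 1 FPKM in 3 libraries or more was fitted with limma 3.58.1 (R 4.3.3). The fit held all 12 libraries, 1 coefficient per group and no covariate. Adjusted p-values are Benjamini-Hochberg values over all genes tested within a comparison. A gene was called at an adjusted p under 0.05 and a fold over 1.5. Tables were made with Python 3.11.15, pandas 2.3.3, numpy 2.4.6 and scipy 1.17.1, and plots with matplotlib 3.10.9.

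The members and the gene lists were chosen with earlier results of these data known. Named beside the 9 members are, per list and comparison, at most the 4 called genes with the largest change and, per tested member, the 2 other genes with the highest Pearson correlation. A few genes that this rule names are not reported here. Marker lists give summed FPKM and, for some lists, the number of markers called. Mouse numbers shared between groups were not treated as pairs in the main fit, and the mice were housed singly. The deviations of same-numbered mice correlated between -0.099 and 0.189, but such pairs are too few to decide whether the numbers link mice. No 2 libraries were identical. The limma p-values rest on the spread between mice within groups, pooled over the 4 groups and moderated over all genes tested.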

Additional observations from a re-analysis of the deposited data

How the results depend on the processing

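With the adjusted p alone, 6445 genes were called between HFD and ND, 4298 between CLE and HFD, 3428 between LU and HFD, 661 between CLE and ND and 1635 between LU and ND, and 5 receptors between LU and HFD. Between CLE and LU, 1 gene was called with the settings used, and 0 with no filter, a pseudocount of 0.1, a mean FPKM of 5 as filter, quantile normalization, a fit of the groups compared alone, a trended moderation, the letter R as covariate, the transcript with the highest mean, the class code j left out (assembled variants of known transcripts) or the replicate block. Between CLE and ND, 372 genes were called, against 227 with no filter, 0 with only the groups compared, 207 with the highest transcript, 224 without class code j, and 159 without the libraries with the letter R. With a mean FPKM of 5, 1 receptor was called there. The mouse number as a replicate block, which could be fitted only among ND, CLE and LU, left 2 genes between CLE and ND, 407 genes and 0 receptors between LU and ND. Without the libraries with the letter R, 0 receptors were called between LU and ND.

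Leaving out 1 mouse at a time, the genes called ranged from 3079 to 3375 (HFD against ND), 1890 to 2320 (CLE against HFD), 1305 to 1686 (LU against HFD), 119 to 498 (CLE against ND), 572 to 960 (LU against ND) and 0 to 1 (CLE against LU). Receptors called ranged from 6 to 7, 2 to 4, 2 to 4, 0 to 1 and 0 to 2, and stayed at 0 for CLE against LU.

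Directions changed only where a difference was uncalled. Without the letter R libraries, *Hcar1* was at 0.23 (CLE) and 0.043 (LU) and *Ptger3* at 0.013 (CLE) against ND, and CLE against LU at 0.031 (*Adora2b*), 0.12 (*Ffar2*), 0.19 (*Hcar1*), 0.049 (*Hcar2*) and 0.10 (*Ptger3*). With the replicate block, *Adora1* was at -0.033 (LU against ND), and CLE against LU at 0.0027 (*Hcar1*), 0.098 (*Hcar2*), 0.087 (*Ptger3*) and -0.0007 (*Sucnr1*). Quantile normalization gave 0.013 for *Adora2b*. Leaving out 1 mouse, CLE against LU ranged from -0.072 to 0.14 for *Adora1*, -0.18 to 0.10 for *Adora2b*, -0.21 to 0.13 for *Ffar2*, -0.31 to 0.20 for *Hcar1*, -0.38 to 0.096 for *Hcar2* and -0.23 to 0.094 for *Ptger3*. The cause of these changes was not tested. Beside the changes with 1 mouse left out or without the letter R libraries, single calls that depended on a setting were *Hcar1* in HFD (adjusted p = 0.0649 with no filter, 0.0676 with the letter R as covariate), *Sucnr1* in CLE against HFD (0.58 with that covariate), *Adora1* in HFD (0.56 with quantile normalization), *Ffar4* in LU against ND (-0.62, adjusted p = 0.0706, with the replicate block), and, gained, *Adora1* in LU against HFD (-0.78 with the highest transcript, -0.74 without class code j) and *Hcar2* in CLE against ND (-1.06, adjusted p = 0.049, with a mean FPKM of 5, which left *Adora2b* untested). Without the letter R libraries ND is 1 mouse, assumed to vary like the other groups. With 3 mice per group and unknown depth, differences under the fold used here are only loosely bounded.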
